A study of Mus musculus with 7 samples.

Results

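Amino acid transporters move amino acids, and in some families neurotransmitters, taurine or creatine, across the plasma membrane and the membranes of lysosomes. In the small intestine, the carriers of the enterocyte brush border take up amino acids from the lumen, whereas those of secretory cells supply protein synthesis. The Slc1 and Slc6 families couple uptake to sodium. The Slc7 light chains exchange amino acids and mostly work bound to an Slc3 heavy chain. The Slc36 family includes proton-coupled carriers, and the Slc38 family carries mainly glutamine and other small neutral amino acids. The Slc43 family includes carriers of large neutral amino acids. These 7 families were examined in Paneth cells (PCs), the antimicrobial cells of the crypt base, which secrete large amounts of protein. Members were all genes of the count table whose mouse symbol consists of one of the family names Slc1, Slc3, Slc6, Slc7, Slc36, Slc38 or Slc43 followed by the letter a and a number. This gave 61 genes out of 55414 identifiers, with 7 in Slc1, 2 in Slc3, 19 in Slc6, 15 in Slc7, 4 in Slc36, 11 in Slc38 and 3 in Slc43.

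The libraries were made from sorted PCs of C57BL/6J mice taken 15 h after injection of TNF, a pro-inflammatory cytokine (4 libraries), or of PBS as the control (3 libraries), and by the series description every library stems from its own mouse. No genetic modification is given for either group. Total counts ran from 15511455 to 19193721 per library. Levels are given as CPM, counts per 1000000 on library sizes corrected with TMM factors (trimmed mean of M-values), and as CPM per kb of annotated exon sequence where different genes are compared. A gene is called higher or lower when its edgeR quasi-likelihood test over all 14329 genes that passed the filter on low counts has a Benjamini-Hochberg adjusted p under 0.05.

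The PC label was checked against marker genes. All 9 PC markers were tested, and their summed level was between 165000 and 266000 CPM after PBS and between 160000 and 286000 CPM after TNF. Among them, Pla2g2a and Mmp7 were called higher and Clps (fell by 2.27 on the log2 scale) and Habp2 (fell by 1.26) lower. The 8 stromal and endothelial markers summed to at most 0.504 CPM in any library, with Kdr at 0 counts, and the 4 erythroid markers to at most 0.236 CPM, with Hbb-bs and Hba-a1 at 0. Leukocyte markers (8 genes, Cd3e at 0) summed to between 24.7 and 32 CPM after PBS and between 19 and 28.5 CPM after TNF. Within this list S100a9, a neutrophil calcium-binding protein gene, had 0 counts in each PBS library and 103, 116, 60 and 120 counts after TNF, S100a8 had 0 and 32 counts in all, and Ptprc was called lower (16.4 and 8.5 CPM on average). Markers of several other epithelial cells were lower after TNF, with 7 of 9 tested enterocyte, 6 of 6 tuft, 5 of 5 stem cell, 4 of 7 goblet cell and 3 of 7 enteroendocrine markers called lower, beside 30.1% of all tested genes. Apoa1, Apoa4, Rbp2 and the tuft cell marker Il25 among them passed the filter through the PBS libraries alone and so had to differ. Sis, Zg16, Gip and Ascl2 reached the cutoff in every PBS library but in too few TNF libraries to pass on these. Their lower calls thus rest on the PBS level as well. Krt20 among the enterocyte markers (7.65 and 17.5 CPM on average) and Spdef among the goblet cell markers (131.7 and 356 CPM) were called higher. The 11 enterocyte markers summed to between 534 and 679 CPM after PBS and between 94.2 and 131 CPM after TNF, and the 6 tuft cell markers to between 1290 and 2090 CPM and between 224 and 591 CPM. Goblet cell markers (7 genes) ranged from 7410 to 14100 CPM after PBS, with the highest sum in PBS replicate 1, and from 6790 to 7420 CPM after TNF. The 7 enteroendocrine markers, of which Tac1 alone was called higher (1.71 and 41.1 CPM on average), summed to between 45.7 and 115 CPM after PBS and between 50.6 and 89.4 CPM after TNF, and the 5 stem cell markers to between 2550 and 3690 CPM and between 998 and 1630 CPM. Genes of duodenal and jejunal position summed to between 178 and 216 CPM after PBS and between 33.5 and 45.7 CPM after TNF, and ileal genes to between 27.6 and 45.3 CPM and between 68.7 and 75.8 CPM. The ileal rise was mostly Hoxb9 (9.59 and 44.6 CPM on average) and Hoxb8 (4.26 and 13.9 CPM), while Osr2 was called lower (18.5 and 9.6 CPM). Slc51b was called higher (0.404 and 4.01 CPM). The other ileal genes did not pass the filter. In counts over the PBS and TNF groups, Cubn had 136 and 0, Fabp6 39 and 2, Slc51a 27 and 0 and Hoxa10 7 and 0. Slc10a2 went the other way with 0 and 34 counts, and Fgf15 had 2 and 5. PBS replicate 2 held most counts of Cubn, Fabp6 and Slc51a. In such bulk samples, fewer cells of a type and less RNA per cell cannot be told apart. The part of these shifts in the transporter results was not tested, apart from the values given beside single genes.

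After TNF, transporters changed in both directions within nearly every family. Of the 61 members, 36 passed the filter on low counts, and 29 of these were called, 14 higher and 15 lower. This is 80.6% of the tested members, beside 59.6% of all tested genes (29.5% higher and 30.1% lower). Among them, 8 were higher and 11 lower by 2-fold or more, which is 52.8% of the tested members beside 31.6% of all tested genes. For 27 tested members, all of them called, the CPM ranges of both groups were apart, and the background for this separation is 60.7% of all tested genes. The median log2 fold change was -0.08 over the tested members and 0.0017 over all tested genes. Slc1a2 passed the filter through the PBS libraries alone, and Slc6a14 and Slc7a3 through the TNF libraries alone, so that these 3 had to differ. Slc6a4, Slc38a3, Slc38a4 and Slc38a5 reached the cutoff in 3 PBS libraries but in no more than 2 TNF libraries, so their passing rests on the PBS level, and their values carry the same limit.

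**Figure D1:**
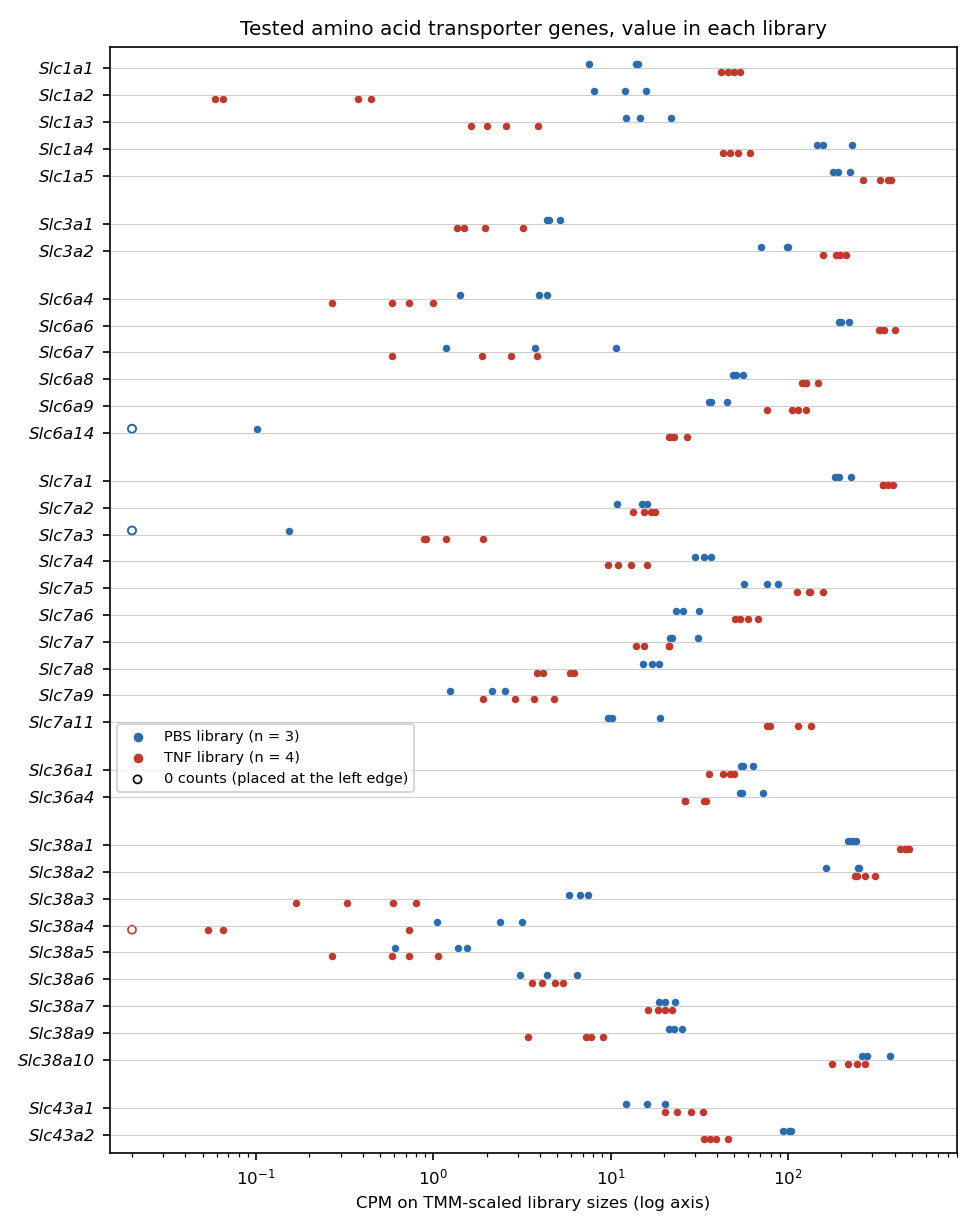
Level of each of the 36 tested transporter genes (rows, grouped by family) in each library, in CPM on a log axis; blue points are the 3 PBS and red points the 4 TNF libraries, and open circles at the left edge mark libraries with 0 counts. Slc6a14 sits between 21.3 and 27.2 CPM in the TNF libraries against at most 0.102 CPM after PBS, and the groups are apart for 27 of the 36 genes.

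A further 16 members had 0 counts in every library, which allows at most 0.0243 CPM over all libraries for counting error alone. These were Slc1a6 and Slc1a7, Slc6a5, Slc6a11, Slc6a15, Slc6a16, Slc6a17, Slc6a18 and Slc6a21, Slc7a10, Slc7a12, Slc7a13 and Slc7a14, Slc36a2 and Slc36a3, and Slc38a8. Another 9 had counts but did not pass the filter. Slc6a2, Slc6a3, Slc6a12, Slc6a13, Slc38a11 and Slc43a3 had between 2 and 7 counts in all. The noradrenaline (Slc6a2), dopamine (Slc6a3) and GABA (Slc6a11, Slc6a12, Slc6a13) carriers were thus at 0 or at a few counts. All 13 counts of Slc7a15 lay in PBS replicate 2.

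Slc6a19 encodes the main sodium-dependent carrier of neutral amino acids in the enterocyte brush border. It had 9, 78 and 10 counts in the PBS libraries and 1, 0, 6 and 0 in the TNF libraries. It was low in every library except PBS replicate 2, and all PBS libraries lay above all TNF libraries in CPM. It did not pass the filter. PBS replicate 2 also stood out for markers of mature enterocytes. Apoa1 had 1.11, 22.1 and 2.39 CPM in the PBS libraries, Lct 0.0618, 10.2 and 0.902 CPM and Sis 4.7, 15.2 and 4.99 CPM, although the sum of the enterocyte list, most of which is Anpep and Apob, was similar (657, 679 and 534 CPM). The part of these markers in the values of Slc6a19 and Slc7a15 was not tested.

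The level of the families was compared per kb of exon. Over all 61 members, the summed level was 307.9 ± 38.6 CPM per kb (SD, n = 3) after PBS and 397 ± 28.9 CPM per kb (SD, n = 4) after TNF, a ratio of 1.29. The Slc6 sum was 35.8 ± 1.39 after PBS and 78.7 ± 2.78 after TNF (ratio 2.2), the Slc3 sum 20.2 ± 3.58 and 40.8 ± 5.09 (2.02) and the Slc7 sum 53.6 ± 7.33 and 89.1 ± 8.67 CPM per kb (1.66). For these 3 families, the lowest TNF value lay above the highest PBS value. The Slc36 sum was 18.8 ± 2.42 and 12 ± 1.02 (0.642), and the Slc43 sum 10.8 ± 0.886 and 7.58 ± 0.988 CPM per kb (0.705), with each TNF library below each PBS library. The families with the highest sums after PBS, Slc1 (83 ± 14.8 and 80.2 ± 9.89) and Slc38 (85.8 ± 12.1 and 88.9 ± 6.12 CPM per kb), overlapped between the groups. Summed over members by call, the 14 called higher gained 149 CPM per kb on average, whereas the 15 called lower dropped by 63.3 CPM per kb. These sums are descriptions, without a test.

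**Figure D2:**
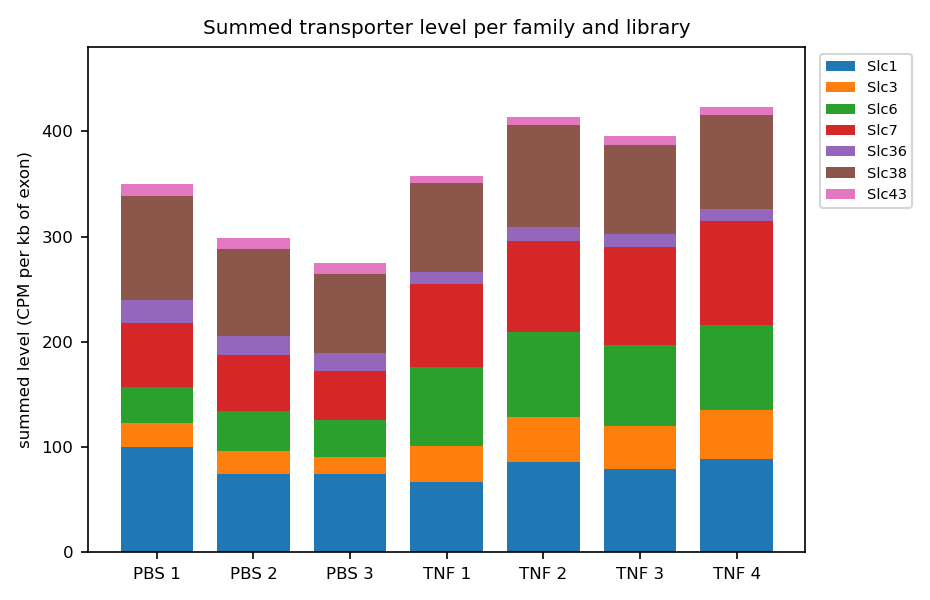
Summed level of the members of each family (colours) in each of the 7 libraries, in CPM per kb of exon, with the bars stacked from 0. Bars reach from 274.9 to 350.2 CPM per kb after PBS and from 357.6 to 423.4 CPM per kb after TNF, and the Slc3, Slc6 and Slc7 segments are taller in every TNF library.

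In the Slc1 family, the tested members were all called, 2 higher and 3 lower. Slc1a5 (chromosome 7, 16515265 to 16532731 on GRCm39) encodes ASCT2, a glutamine exchanger of the plasma membrane, and Slc1a4 (chromosome 11, 20252180 to 20282774) encodes its paralog ASCT1, a carrier of alanine, serine and cysteine. Slc1a5 had 225, 180.1 and 191 CPM in the PBS libraries and 267, 381, 331 and 368 CPM in the TNF libraries. Each TNF value exceeded each PBS value, with a fitted log2 change of 0.76 ± 0.14 (SE, edgeR adjusted p = 0.000276). Slc1a4 had 231, 157 and 146 CPM after PBS and 47.4, 43, 52.1 and 61.3 CPM after TNF. It was highest in PBS replicate 1 and lower in every TNF library, and fell by 1.81 ± 0.16 on the log2 scale (edgeR adjusted p = 1.1e-06). Per kb of exon, Slc1a4 held 51.3% ± 4.38 of the Slc1 level after PBS and 15.4% ± 2.27 after TNF, while Slc1a5 held 44.5% ± 2.82 and 77.3% ± 3.46. The ratio of Slc1a5 to Slc1a4 was 0.744, 0.877 and 1 in the PBS libraries and 4.3, 6.77, 4.86 and 4.6 in the TNF libraries. Which gene leads after PBS depends on the gene length used. With the longest annotated transcript, the ratio was 1.1, 1.29 and 1.48 after PBS and between 6.35 and 9.99 after TNF, and the mean shares after PBS were 41% for Slc1a4 and 52.3% for Slc1a5.

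The other tested Slc1 members are high-affinity glutamate transporters. Slc1a1 (chromosome 19, 28812449 to 28891360), the epithelial and neuronal form, which also carries cysteine, had 7.6, 14.3 and 13.8 CPM after PBS and 49.8, 42.2, 46.1 and 53.5 CPM after TNF. It was higher in every TNF library, with a fitted log2 change of 2.00 ± 0.19 (SE, edgeR adjusted p = 1.56e-06). Slc1a2 (chromosome 2, 102488574 to 102621129) and Slc1a3, known as the glial glutamate transporters of the brain, went the other way. Slc1a2 had 12.1, 8.09 and 15.9 CPM after PBS and 0.448, 0.0589, 0.375 and 0.0654 CPM after TNF, corresponding to 8, 1, 7 and 1 counts. All TNF libraries were far below the PBS libraries, and the fitted change was -5.58 ± 0.46 (SE). Because Slc1a2 passed the filter through the PBS libraries alone, it had to differ, and its call is no separate evidence. Slc1a3 had 12.2, 14.8 and 21.9 CPM after PBS and 3.92, 2, 2.57 and 1.64 CPM after TNF, without overlap, and fell by 2.68 ± 0.29 (edgeR adjusted p = 3.44e-06).

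Both Slc3 heavy chains were called, in opposite directions. Slc3a2 (chromosome 19, 8684245 to 8701108) encodes the CD98 heavy chain, which brings several Slc7 light chains to the plasma membrane. It had 100.7, 99.5 and 70.6 CPM after PBS and 157, 197, 187 and 213 CPM after TNF. The TNF libraries lay above the PBS libraries, with a fitted log2 change of 1.06 ± 0.14 (SE, edgeR adjusted p = 2.27e-05). Exons of Slc3a2 share 743 bases with the non-coding gene Snhg1 on the opposite strand, which had 11.9% as many counts and was not called (log2 change 0.37 ± 0.19). Slc3a1 encodes rBAT, the heavy chain of the cystine and dibasic amino acid carrier of absorptive brush borders. It had 4.39, 4.48 and 5.2 CPM after PBS and 1.96, 1.36, 1.5 and 3.21 CPM after TNF. All TNF values were lower, and the fitted change was -1.23 ± 0.35 (SE, edgeR adjusted p = 0.00724). Its partner light chain gene Slc7a9 was not called, with 1.24, 2.14 and 2.54 CPM after PBS and 4.81, 2.89, 3.7 and 1.9 CPM after TNF (log2 change 0.75 ± 0.40, edgeR adjusted p = 0.123). The Slc3a1 value is uncertain, because 1446 of its 5401 exon bases are shared with Prepl on the opposite strand, which had 901% as many counts and itself fell by 0.91 ± 0.12. Whether strand was used in counting is not given in the sources used here.

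Among the light chains that pair with the CD98 heavy chain, Slc7a5, Slc7a6 and Slc7a11 rose and Slc7a7 and Slc7a8 fell, while Slc7a10 had no counts. Slc7a11 (chromosome 3, 49846975 to 50398070) encodes xCT, which exchanges extracellular cystine for glutamate and thereby supplies cysteine for glutathione. It had 10.3, 19 and 9.7 CPM after PBS and 76.5, 79, 134.9 and 114 CPM after TNF. Every TNF library was above every PBS library, TNF replicate 3 being the highest, and the log2 fold change was 2.95 ± 0.31 (SE, edgeR adjusted p = 3.65e-05). Slc7a5 (chromosome 8, 122607884 to 122634433), the LAT1 carrier of large neutral amino acids such as leucine, had 87.7, 76 and 56.7 CPM after PBS and 113, 132.5, 134 and 157 CPM after TNF. The groups did not overlap (log2 change 0.87 ± 0.15, SE, edgeR adjusted p = 0.000214). Slc7a6, which encodes an exchanger of cationic for neutral amino acids, had 31.7, 25.6 and 23.4 CPM after PBS and 50.6, 53.9, 59.8 and 67.8 CPM after TNF. It too was separated between the groups, with a fitted log2 change of 1.11 ± 0.14 (edgeR adjusted p = 1.08e-05).

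Slc7a8 encodes LAT2, the basolateral carrier of neutral amino acids in absorptive epithelia. It had 17.2, 18.8 and 15.3 CPM after PBS and 4.14, 6.19, 5.89 and 3.86 CPM after TNF. All TNF libraries were well below the PBS range, and Slc7a8 fell by 1.77 ± 0.20 on the log2 scale (SE, edgeR adjusted p = 4.97e-06). Slc7a7, the basolateral exchanger mutated in lysinuric protein intolerance, lies 304027 bases from Slc7a8 on chromosome 14 and changed less, with 31.2, 21.7 and 22.2 CPM after PBS and 13.9, 21.4, 21.3 and 15.4 CPM after TNF. The groups nearly touched, and its call (log2 change -0.47 ± 0.18, edgeR adjusted p = 0.0405) was lost without PBS replicate 1 (-0.28, adjusted p = 0.245), TNF replicate 1 (-0.36, 0.08) or TNF replicate 4 (-0.41, 0.0906). It shares 633 exon bases with Oxa1l on the other strand, which had 3183 counts against 2592 and fell by 0.65 ± 0.13. Per kb of exon, the 6 light chains of Slc3a2 summed to 30.1 ± 5.54 CPM per kb after PBS and 53.9 ± 7.12 CPM per kb after TNF. Slc7a5 made up 63.4% ± 2.25 of this sum after PBS and 64.9% ± 2.41 after TNF. The share of Slc7a11 was 2.82% ± 1.09 and 12% ± 2.36, that of Slc7a7 13.7% ± 1.79 and 5.54% ± 1.17, and that of Slc7a8 6.26% ± 0.851 and 1.02% ± 0.257. The ratio of Slc7a5 to Slc3a2 per kb was between 0.928 and 1.06 after PBS and between 0.819 and 0.896 after TNF, and with the longest transcript between 0.651 and 0.741 and between 0.574 and 0.628.

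**Figure D3:**
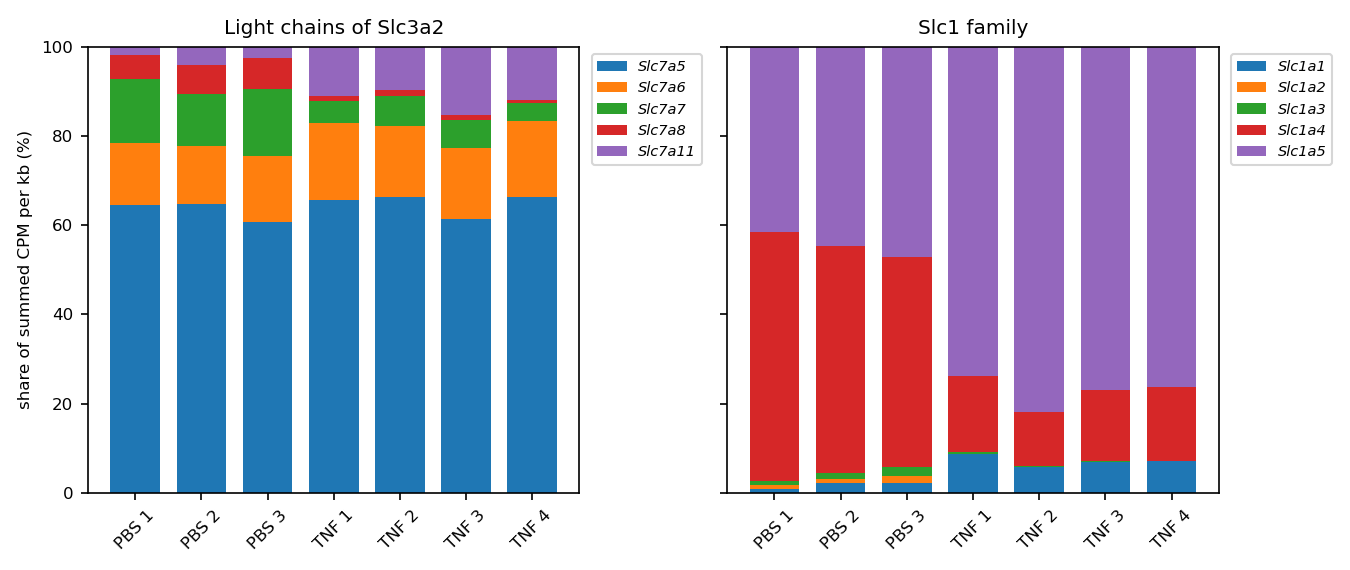
Share of each gene in the summed CPM per kb of the Slc3a2 light chains (left) and of the Slc1 family (right), in percent, stacked for each of the 7 libraries. Slc7a11 takes between 1.87% and 4% of the light chain level in PBS and between 9.78% and 15.3% in TNF libraries, and the Slc1a5 share rises from at most 47.2% after PBS to at least 73.7% after TNF.

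The RefSeq promoter table (GRCm38.p6) matched 43 of the 61 members and 26 of the 36 tested ones. The 250 bases before each start were searched on both strands for 4 motifs, namely TGATGNAA (composite element of ATF4 and C/EBP factors), TGACNNNGC (antioxidant response element), the kB element and the interferon-stimulated response element. The ATF4 element was found for 1 of 8 members called higher, 1 of 13 called lower, 0 of 5 not called and 1 of 17 not tested, beside 3.91% of all genes in the table. The antioxidant element was found for 4 of 8 called higher (Slc6a9, Slc7a1, Slc7a6 and Slc43a1), 0 of 13 called lower, 1 of 5 not called and 3 of 17 not tested, beside 11.5% of all genes. The kB element and the interferon element were each found for 0 of the 8 called higher and 0 of the 13 called lower, beside 5.31% and 3.46% of all genes, and the kB element for 3 of 17 members not tested. Per promoter window, in which a gene can have several starts, the shares over the table were 3.45%, 10.2%, 4.65% and 2.98%. A match describes letters only, and in no member window did matches of different motifs overlap. The Slc7a11 window is shown because it holds the ATF4 element in both orientations, 66 and 47 bases before the start and separated by 11 bases. Slc7a7, which fell, holds an ATF4 element 141 bases before the start shown and another, TGATGCAA, 243 bases before a different start. Windows of 2 members with the antioxidant element (Slc7a1 and Slc43a1), of Slc7a7, and of Slc6a14, the member with the largest rise, are given beside the Slc7a11 window. Each is written 5′ to 3′ on the strand of the gene, with matched letters in capitals. The windows are chr3:50443614-50443713 (minus strand), chr5:148399905-148400004 (minus), chr2:84840223-84840322 (plus), chr14:54418005-54418104 (minus) and chrX:21714800-21714899 (plus), in the order of the lines.
Slc7a11: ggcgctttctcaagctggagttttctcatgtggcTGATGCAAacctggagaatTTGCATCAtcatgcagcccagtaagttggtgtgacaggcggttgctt
Slc7a1: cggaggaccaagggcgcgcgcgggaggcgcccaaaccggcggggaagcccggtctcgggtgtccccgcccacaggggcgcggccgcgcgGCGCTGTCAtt
Slc43a1: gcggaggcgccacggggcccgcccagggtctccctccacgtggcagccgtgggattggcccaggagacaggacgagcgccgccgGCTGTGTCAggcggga
Slc7a7: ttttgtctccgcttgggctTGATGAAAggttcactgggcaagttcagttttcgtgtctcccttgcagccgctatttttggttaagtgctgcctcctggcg
Slc6a14: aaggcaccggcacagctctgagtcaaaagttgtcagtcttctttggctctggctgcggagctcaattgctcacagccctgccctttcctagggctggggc

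The cationic amino acid transporters of the Slc7 family do not need a heavy chain. Slc7a1 (CAT1), the general carrier of arginine and lysine, averaged 203 ± 22.5 CPM (SD, n = 3) in the PBS group and 363 ± 23.3 CPM (SD, n = 4) in the TNF group, a fitted log2 change of 0.84 ± 0.11 (SE, edgeR adjusted p = 2.1e-05). Slc7a2 (CAT2) was not called, with 14 ± 2.73 CPM and 15.8 ± 1.9 CPM (log2 change 0.18 ± 0.17, edgeR adjusted p = 0.389). Slc7a3 (CAT3), mainly known from neurons, had 0, 3 and 0 counts after PBS and 21, 15, 17 and 29 counts after TNF. Its ratio was 21.7 (95% Clopper-Pearson interval 7.18 to 107.5, for counting error only), and without PBS replicate 2, which held its PBS counts, it was at least 13.9-fold higher than a floor of 3 counts over the PBS group. Without PBS replicate 3 the ratio was 14.2 (interval 4.7 to 70.4). Slc7a4, a relative of these carriers, had 36.7, 33.8 and 30.0 CPM after PBS and 9.74, 16, 13.1 and 11 CPM after TNF. The TNF libraries were all lower, by 1.43 ± 0.16 on the log2 scale (edgeR adjusted p = 5.2e-06).

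The Slc6 family had 4 members called higher, 1 called lower and 1 not called. Slc6a14 (chromosome X, 21581135 to 21608594) encodes a sodium- and chloride-dependent carrier with a broad range of neutral and cationic amino acids. It had 0, 2 and 0 counts in the PBS libraries and 380, 370, 424 and 415 counts in the TNF libraries, or 21.3, 21.8, 22.7 and 27.2 CPM. It was nearly undetected after PBS and even among the TNF libraries, with a ratio of 632 (95% interval 174.5 to 5220). Because Slc6a14 passed the filter through the TNF libraries alone, it had to differ, and its call is no separate evidence. Without PBS replicate 2, which held its 2 counts, Slc6a14 was at least 270-fold higher against a floor of 3 counts over the PBS group, and without PBS replicate 3 the ratio was 414 (interval 114.4 to 3419). Per kb of exon it had rank 41 of the 61 members after PBS and rank 14 after TNF, and it held 8.59% ± 0.866 of the Slc6 level after TNF (5.46% ± 0.55 with the longest transcript as gene length).

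The creatine transporter gene Slc6a8 (chromosome X, 72716728 to 72726108) had 50.8, 55.7 and 49.3 CPM after PBS and 120.2, 148, 127 and 127 CPM after TNF. Its groups were far apart, with a fitted log2 change of 1.33 ± 0.11 (SE, edgeR adjusted p = 1.85e-07). Slc6a9 (GlyT1, a glycine transporter) had 36.7, 45.6 and 35.9 CPM after PBS and 76.5, 115, 105.5 and 127 CPM after TNF, and rose by 1.42 ± 0.16 (edgeR adjusted p = 6.81e-06). The taurine transporter gene Slc6a6, the most abundant Slc6 member per kb, had 220.5, 201 and 194 CPM after PBS and 401, 325, 347 and 332 CPM after TNF. It was higher in each TNF library, by 0.78 ± 0.11 (edgeR adjusted p = 4.18e-05). Slc6a4, the serotonin transporter gene, which also acts in intestinal epithelium, fell from 1.42, 3.97 and 4.4 CPM to 0.728, 1, 0.268 and 0.589 CPM, a fitted log2 change of -2.33 ± 0.53 (edgeR adjusted p = 0.00172). PBS replicate 1 was closest to the TNF range. Slc6a4 passed the filter on its PBS level, so its value carries that limit. Slc6a7, a proline transporter gene, spread from 1.17 to 10.8 CPM after PBS and from 0.589 to 3.83 CPM after TNF and was not called (log2 change -1.21 ± 0.71, edgeR adjusted p = 0.171). Its value was -0.14 without PBS replicate 3.

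**Figure D4:**
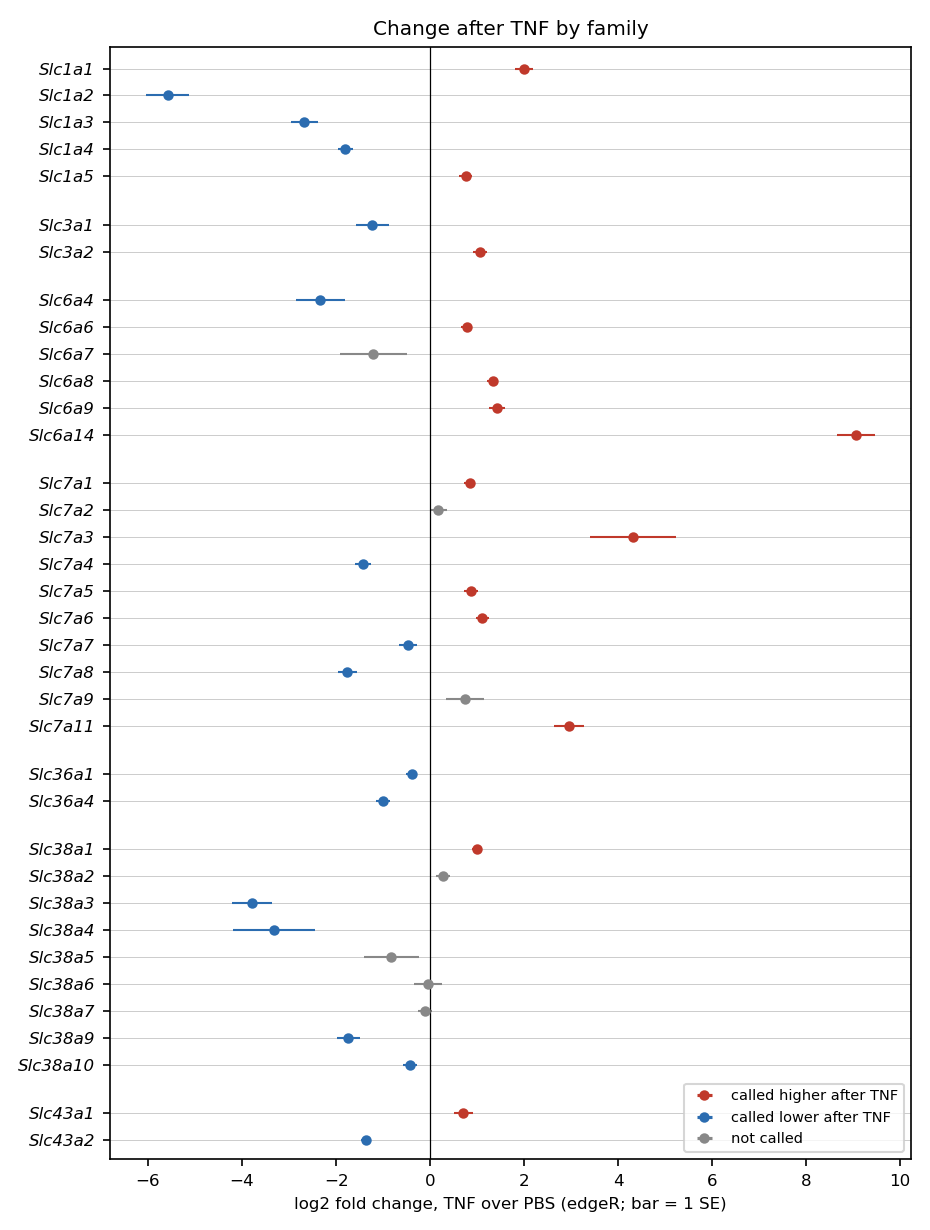
Log2 fold change of TNF over PBS for the 36 tested members by family, with bars of 1 SE from the edgeR fit; red is called higher, blue called lower and grey not called. The values run from -5.58 for Slc1a2 to 9.06 for Slc6a14, and those of Slc6a14 and Slc7a3 are fitted on 2 and 3 PBS counts in all, so they are no measure of size.

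Slc38a9 (chromosome 13, 112797159 to 112875283), the lysosomal arginine transporter that signals to mTORC1, had 21.3, 25.4 and 22.8 CPM after PBS and 9.12, 7.25, 7.76 and 3.4 CPM after TNF. It was lower in each TNF library, by 1.74 ± 0.25 on the log2 scale (SE, edgeR adjusted p = 4.56e-05). Slc36a1 encodes PAT1, a proton-coupled carrier of small neutral amino acids, and Slc36a4 encodes PAT4, which carries proline and tryptophan, both found on lysosomes and other membranes. Slc36a4 fell, averaging 60.6 ± 10.6 CPM (SD, n = 3) in the PBS group and 30.3 ± 4.61 CPM (SD, n = 4) in the TNF group (edgeR adjusted p = 3.76e-05). Slc36a1 had 63.9, 55.6 and 54.1 CPM after PBS and 43.2, 47.3, 49.6 and 35.7 CPM after TNF. Its groups did not overlap, but the change was small (-0.40 ± 0.12, edgeR adjusted p = 0.014) and the call was lost without PBS replicate 1 (-0.32, adjusted p = 0.0752). Slc38a7, a lysosomal exporter of glutamine, had 20.8 ± 2.24 and 19.3 ± 2.53 CPM and was not called (-0.11 ± 0.14, edgeR adjusted p = 0.541).

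Among the other Slc38 genes, Slc38a1 (chromosome 15, 96469298 to 96541851) and Slc38a2 encode system A carriers of glutamine and other small neutral amino acids. Slc38a1 had a mean of 229.8 ± 12.3 CPM after PBS and rose to 458 ± 22.6 CPM after TNF (log2 change 1.00 ± 0.10, SE, edgeR adjusted p = 2.29e-06). Slc38a2 had 222 ± 49.4 CPM and 267 ± 32.6 CPM and was not called (0.27 ± 0.15, edgeR adjusted p = 0.144). These genes lie 43415 bases apart on the same strand, and Slc38a4, a further member 294799 bases from Slc38a2, was called lower. Slc38a4 had 1.05, 2.39 and 3.18 CPM after PBS and 0.728, 0, 0.0535 and 0.0654 CPM after TNF (log2 change -3.32 ± 0.86, edgeR adjusted p = 0.00478). TNF replicate 1 held 13 of its TNF counts and the other TNF libraries 0, 1 and 1. Without TNF replicate 1 the fitted value was -5.59, which rests on those few TNF counts and is no measure of size. Slc38a3, a system N glutamine carrier, had 6.74, 5.8 and 7.42 CPM after PBS and 0.168, 0.589, 0.803 and 0.327 CPM after TNF. It was low in every TNF library and fell by 3.78 ± 0.42 (edgeR adjusted p = 3.84e-06). Both Slc38a3 and Slc38a4 passed the filter on their PBS level, so their values carry that limit.

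Slc38a10, whose substrates are less well defined, had rank 1 per kb among the transporter genes after PBS and rank 4 after TNF. It had 379, 263 and 279 CPM after PBS and 178, 271, 219 and 245 CPM after TNF. The groups overlapped, and PBS replicate 1 was the highest. Among the PBS libraries, this replicate also had the highest sums of goblet cell, enteroendocrine and PC markers. Its fall of 0.43 ± 0.16 (SE, edgeR adjusted p = 0.031) was lost without PBS replicate 1 (-0.24, adjusted p = 0.186), TNF replicate 1 (-0.33, 0.0591) or TNF replicate 3 (-0.42, 0.0652). The part of these cell types in the Slc38a10 value was not tested. Slc38a5 (1.18 ± 0.498 and 0.661 ± 0.329 CPM) and Slc38a6 (4.65 ± 1.71 and 4.51 ± 0.815 CPM) were not called, with log2 fold changes of -0.82 ± 0.59 and -0.05 ± 0.30 (edgeR adjusted p = 0.243 and 0.901). Slc38a6 shares 268 exon bases with Trmt5 on the opposite strand, which had more counts.

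The tested members of the Slc43 family encode facilitative carriers of large neutral amino acids, and they moved apart. Slc43a2 (LAT4, chromosome 11, 75421362 to 75477630), the more abundant gene after PBS, had 103.8, 94.5 and 101.1 CPM after PBS and 39.1, 36.2, 46 and 33.6 CPM after TNF. All TNF libraries were lower, by 1.36 ± 0.12 on the log2 scale (SE, edgeR adjusted p = 2.78e-07). Slc43a1 (LAT3) rose from 16.2 ± 4.08 CPM to 26.5 ± 5.68 CPM (0.71 ± 0.20, edgeR adjusted p = 0.00719), although TNF replicate 1 (20.37 CPM) fell just inside the PBS range, whose highest value was 20.4 CPM. Slc43a2 made up 74.8% ± 4.54 of the family level per kb after PBS and 41.5% ± 6.48 after TNF.

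Per kb of exon, the order of the leading transporter genes changed. After PBS the highest levels were those of Slc38a10 (43.9), Slc1a4 (43), Slc1a5 (36.7), Slc38a2 (22.9), Slc3a2 (19.4), Slc7a5 (19.1) and Slc7a1 (17.2 CPM per kb). Neighbours in this order did not differ beyond their spread over the PBS libraries, except Slc1a5 and Slc38a2. After TNF the order began with Slc1a5 (62.2), Slc3a2 (40.4), Slc7a5 (34.9), Slc38a10 (32.6) and Slc7a1 (30.8 CPM per kb), and Slc1a4 took rank 11 (12.3 CPM per kb). The gap between Slc1a5 and Slc3a2 after TNF exceeded their spread, whereas Slc7a5, Slc38a10 and Slc7a1 lay within it. The order depends in part on the gene length used. With the longest transcript, Slc1a5 (56.2) stood above Slc1a4 (44.6) after PBS and Slc7a5 took rank 9 (20.2 CPM per kb), while Slc38a10 kept rank 1. After TNF, Slc1a5 (95.2) and Slc3a2 (60.9) again led, followed by Slc38a1 (58.1) and Slc6a6 (53.4), and Slc38a10 took rank 5 and Slc7a5 rank 8 (36.9 CPM per kb).

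Other genes that handle amino acids were taken from further lists, for which the background is again 59.6% of all tested genes called, 29.5% higher and 30.1% lower. Of 18 tested carriers of amino acids or peptides, among them Slc6a20a, which belongs to Slc6 but has a symbol that ends in a letter, 4 were higher, 4 lower and 10 not called (median log2 fold change 0.09). The peptide carrier gene Slc15a2 had the largest positive value but was not called (1.52 ± 1.24, edgeR adjusted p = 0.334), and the next was the mitochondrial aspartate and glutamate carrier gene Slc25a13 (0.73 ± 0.12, edgeR adjusted p = 0.000144). The largest falls were those of Slc16a10, a basolateral carrier of aromatic amino acids (-1.97 ± 0.23, edgeR adjusted p = 6.32e-06), and Slc25a15, the mitochondrial ornithine carrier (-0.88 ± 0.11, 8.16e-06). Of 9 tested partners and regulators of transporters, 5 were higher, including Sgk2, and 3 lower (median 0.76). The kinase genes Sgk2 and Sgk1, whose products act on many membrane carriers, had the largest positive values. Sgk1 went from 4.38 to 62.1 CPM (log2 change 3.81 ± 0.19, edgeR adjusted p = 2.85e-09), whereas Sgk2 had 0, 0 and 3 counts after PBS and 67, 67, 62 and 46 counts after TNF. Sgk2 passed the filter through the TNF libraries alone and so had to differ. Arl6ip1 (-0.78 ± 0.13, edgeR adjusted p = 0.000123) and Nedd4l, a ubiquitin ligase of membrane carriers (-0.64 ± 0.12, 0.000386), had the largest falls.

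The machinery that senses amino acids around mTORC1 and GCN2 had 34 tested genes. Of these, 9 were higher, 14 lower and 11 not called (median log2 fold change -0.33). The background is 59.6% of all tested genes called, 29.5% higher and 30.1% lower. The largest rises were those of Lamtor5 (1.21 ± 0.16, edgeR adjusted p = 2.51e-05), a subunit of the Ragulator that anchors mTORC1 to lysosomes, and of the Rag GTPase gene Rragc (1.03 ± 0.11, 2.66e-06). The largest falls were those of Nprl2 (-1.85 ± 0.28, edgeR adjusted p = 5.92e-05), a subunit of the mTORC1 inhibitor GATOR1, and of Sesn3 (-1.85 ± 0.13, 4.4e-08), a member of the sestrins. Atf4, the transcription factor of the amino acid response, rose from 256 to 394 CPM (0.62 ± 0.11, edgeR adjusted p = 0.000273).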

How the data were processed

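PCs sorted from mice injected with PBS (3 libraries) or TNF (4 libraries) were profiled by single-end RNA-seq on an Element AVITI instrument. The deposited table holds the authors' raw counts for each Ensembl gene. The submitters' processing notes name FastQC, Trimmomatic 0.39, STAR 2.7.10a and DESeq2 and the builds mm10 and mm39, without stating which build, annotation or strand setting gave this table. Symbols, coordinates and exon lengths came from GENCODE M39 of GRCm39, in which 98.8% of identifiers were found. Reads from overlapping genes on opposite strands may be shared.

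Counts were tested in R 4.3.3 with the robust quasi-likelihood test of edgeR 4.0.16 (two-sided, 7 libraries, no covariates), after filterByExpr (0.551 CPM in at least 3 libraries) and TMM scaling, with Benjamini-Hochberg adjustment over all tested genes. Each SE is the absolute log2 change divided by the square root of F. For genes with 0 counts in a group, folds are bounds against 3 counts over that group. With 1 to 3 counts, the ratio has an exact 95% interval. Both cover counting error only. Levels per kb used the union of exons, and the longest annotated transcript as the alternative, added for ranks, ratios and light chain shares after seeing the data.

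Libraries with the same replicate number did not deviate together (correlations -0.299, -0.0314 and -0.174), and each came from its own mouse, so no pairing was assumed. No pair of libraries within a group agreed within sampling noise (chi-square per degree of freedom at least 17). Alternatives were DESeq2 1.42.0, its size factors, total-count scaling, TMM without alpha-defensins and Lyz1, no filter, at least 1 CPM in 3 libraries, a replicate block and leaving out each library. Alternatives for the further lists were added after seeing the data. Members and lists were chosen with earlier results of these data known. Every tested member is named, and 1 member that did not pass the filter is not reported here. Values per library are given for called members with a mean of at least 1 CPM and an absolute log2 fold change of at least 1, for the most abundant member of each family per kb, and for Slc6a14 and Slc7a11. Slc7a7 and Slc7a9 and the members that did not pass the filter are given per library as well, chosen after their values were seen. From each further list, the 2 genes that rose most and the 2 that fell most by fitted value are named, and Atf4, Apoa1, Lct, Sis, Anpep, Apob and the other markers named were added after their values were seen.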

Additional observations from a re-analysis of the deposited data

Results flagged for a closer look

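Within the 4 TNF libraries, the highest and the lowest CPM value of each of the 36 tested members was compared with the other TNF values by Dixon's ratio of gap to range. A library stood apart for 1 member, and chance gives about 1 in 20. Slc38a4 had 0.728 CPM in TNF replicate 1 against 0 to 0.0654 CPM in the other TNF libraries (ratio 0.91, above the 95% critical value for 4 samples). It remained lower than in any PBS library. The cause was not tested.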

How the results depend on the processing

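Under 14 alternatives, between 13 and 14 members were called higher and between 12 and 18 lower. Leaving out single libraries gave 14 higher throughout and between 13 and 15 lower. Of 501 values of tested members, 486 kept their direction and their side of the threshold, and 31 of 36 members did so throughout. Scaling by total counts moved the median of all genes to -0.16 and left 14 members called higher and 15 lower. The replicate block gave 14 higher and 12 lower, with the calls lost for Slc7a7 (-0.41, adjusted p = 0.172), Slc36a1 (-0.31, 0.0959) and Slc38a10 (-0.46, 0.092), and changed no other call. The correlations show no pairing by number. The sign of Slc38a6, not called, turned under the replicate block (0.035), and ranged from -0.26 (without PBS replicate 1) to 0.26 (without PBS replicate 3) when single libraries were left out. Slc6a7 passed the threshold without the low-count filter (-1.20, adjusted p = 0.0315) and without PBS replicate 1 (-1.67, 0.0298). Slc6a19 was called lower by DESeq2 (-4.12, adjusted p = 0.000343), without the filter (-4.00, 2.89e-06) and without PBS replicate 1 (-4.41, 0.00387), and Slc7a15 without the filter (-5.03, 0.0295). The partners list had 5 genes lower without the filter and 3 with it.

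With the longest transcript as gene length, the summed levels in CPM per kb after PBS and TNF were 107.9 and 120.3 for Slc1, 30.0 and 61.3 for Slc3, 58.4 and 124 for Slc6, 73.5 and 123 for Slc7, 142.5 and 158 for Slc38, and 16.2 and 11.4 for Slc43, higher than with the union of exons by construction since the lengths are shorter. Slc36 moved by less than its spread. In the Slc7 family, Slc7a1 then led Slc7a5 after PBS (37.2% against 27.3% of the family level) and after TNF (39.8% against 30%). Depth limits Slc6a14, Slc7a3 and the untested members, whose counts in a group are near 0.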
